A study of Mus musculus with 24 samples.

Results

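The levels of 8 genes of the enteric nervous system were followed in pieces of distal small intestine from 24 mice of the inbred strain C57BL/6N. They were taken by symbol from a table of 55536 genes: the neuronal genes *Elavl4*, *Uchl1*, *Ret*, *Vip*, *Nos1* and *Tac1* and the glial genes *Gfap* and *S100b*. The mice started at an age of 4 to 5 weeks and formed 4 groups of 6, each with 3 males and 3 females. CD received a control diet with 10% of energy from fat, HFD a high-fat diet with 60%, and CDmetf and HFDmetf the same diets with metformin, a glucose-lowering drug given here in drinking water. The diets ran for 20 weeks before metformin began, and metformin was then given for 10 weeks at a dose of 50 mg/kg/day. Each library came from 1 animal of a different cage, and no group carried a genetic change. Replicate numbers 1 to 3 were given within each sex of a group, so that CD M1 is the male of the CD group with number 1.

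The enteric nervous system is a network of neurons and glia in the gut wall, between the muscle coats and in the submucosa, and it drives motility, secretion and blood flow. *Elavl4* encodes an RNA-binding protein of neurons and *Uchl1* an abundant neuronal deubiquitinase, and both label most enteric neurons. *Ret* encodes the receptor tyrosine kinase for ligands of the GDNF family, on which the formation of this network depends. *Vip* encodes the relaxing and secretory peptide VIP and *Nos1* the neuronal nitric oxide synthase, both of inhibitory motor neurons, while *Tac1* encodes substance P of excitatory neurons. *Gfap*, an intermediate filament gene, and *S100b*, a calcium-binding protein gene, mark enteric glia.

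The libraries held 1829690 to 40606442 reads on genes (median 3467307.5). Levels are given as CPM, counts scaled to a common library size with edgeR's TMM factors, and 3 reads correspond to 0.0717 to 1.63 CPM depending on the library. The 10 most abundant genes made up 85.4% of the reads of CD M3 and 36.6% of those of HFDmetf F2. Sex-linked transcripts followed the labels in 22 libraries and went against them in 2, labelled HFD M2 and HFD F2. Marker genes of the epithelium summed to 6732 to 14814 CPM and those of smooth muscle to 1718 to 4955 CPM, whereas the 8 genes together reached 26.9 to 108 CPM. The labels name 1 animal per library, and p-values therefore measure the spread between animals and their tissue pieces.

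The upstream sequences of *Vip*, *Tac1*, *Nos1* and *Uchl1* are shown because these are the 3 transmitter genes and the gene they were set against below. The stretches start 250 bases before a transcript start (RefSeq, GRCm38.p6) and stop before the first exon base of the same gene, and the *Nos1* start used lies inside the span annotated for that gene below. They are printed 5′ to 3′ on the strand of the gene, plus in all 4 cases. Capitals mark TGACG, a part of the cyclic AMP response element TGACGTCA, read on either strand (CGTCA on the other), and the TATA box TATAAA. Within 300 bases around the start, TGACG is held by 20.8% of 32851 promoters, TATAAA by 13.6%, TGACGTCA by 1.79% and the E-box CAGCTG by 16.3%, and a match is a description of these letters only.
Vip, chr10:5638968-5639217: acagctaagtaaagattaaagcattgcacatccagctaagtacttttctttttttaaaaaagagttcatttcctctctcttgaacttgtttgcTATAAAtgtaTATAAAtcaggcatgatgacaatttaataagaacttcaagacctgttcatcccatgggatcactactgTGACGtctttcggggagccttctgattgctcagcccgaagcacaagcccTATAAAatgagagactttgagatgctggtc
Tac1, chr6:7554811-7554878: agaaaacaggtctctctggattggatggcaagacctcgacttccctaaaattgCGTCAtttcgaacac
Nos1, chr5:117866589-117866838: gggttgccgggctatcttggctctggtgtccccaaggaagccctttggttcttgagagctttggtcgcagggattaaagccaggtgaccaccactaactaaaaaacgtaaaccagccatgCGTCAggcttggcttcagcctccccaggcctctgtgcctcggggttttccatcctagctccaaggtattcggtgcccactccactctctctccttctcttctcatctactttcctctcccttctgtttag
Uchl1, chr5:66675871-66676090: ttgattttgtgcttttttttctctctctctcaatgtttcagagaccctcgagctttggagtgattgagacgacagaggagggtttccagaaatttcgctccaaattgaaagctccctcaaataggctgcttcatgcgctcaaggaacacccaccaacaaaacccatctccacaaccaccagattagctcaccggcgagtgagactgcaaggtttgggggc
The *Vip* stretch holds TGACG 79 bases before the start and TATAAA 157, 147 and 30 bases before it. *Tac1* holds TGACG on the other strand 197 bases and, beyond the printed stretch, 43 bases before its start, and *Nos1* 130 bases before. The *Uchl1* stretch holds none of the letters searched, TGACGTCA is in none of the 4, and *Ret* was not in the promoter table.

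In GRCm38 with GENCODE M21, *Uchl1* (ENSMUSG00000029223) lies on chromosome 5 from 66676091 to 66687234 on the plus strand with 1632 exon bases. *Nos1* (ENSMUSG00000029361) spans 117781032 to 117958840 on chromosome 5, plus strand, with 11151 exon bases in 33 blocks. *Vip* (ENSMUSG00000019772) lies at 5639218 to 5647617 on chromosome 10, *Tac1* (ENSMUSG00000061762) at 7554879 to 7565834 on chromosome 6, both on the plus strand. On the minus strand are *Ret* (ENSMUSG00000030110) at 118151745 to 118197718 on chromosome 6, *Elavl4* (ENSMUSG00000028546) at 110203722 to 110351909 on chromosome 4 and *Gfap* (ENSMUSG00000020932) at 102887336 to 102900912 on chromosome 11. *S100b* (ENSMUSG00000033208) lies at 76253853 to 76261159 on chromosome 10, plus strand. Of the exon bases of *Uchl1*, 295 (18.1%) are shared with the antisense gene *Uchl1os*, and 268 of *Nos1* (2.40%) with the antisense gene *Gm26995*. The strand used for counting is not given in the sources used here, and counts of these pairs are uncertain to that extent.

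Per kilobase of exons, *Vip* had the highest median level over the 24 libraries, 4.396 CPM per kb, followed by *Uchl1* at 3.30, *Ret* at 2.13 and *Tac1* at 1.90. *S100b* stood at 0.858 CPM per kb, *Elavl4* at 0.743, *Nos1* at 0.704 and *Gfap* at 0.214. The order held within most libraries between *Vip* and *Uchl1*, *Uchl1* and *Ret* and *Ret* and *Tac1* (19 of 24 each), between *Tac1* and *S100b* (22 of 24) and between *Nos1* and *Gfap* (21 of 24). *Elavl4* and *Nos1* could not be ordered, since *Elavl4* was the higher of them in 11 of 24 libraries, and *S100b* stood above *Elavl4* in 16 of 24.

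Between animals, *Nos1* ranged 50.8-fold between its lowest and highest library, *Uchl1* 11.6-fold, *Elavl4* 9.25-fold and *Vip* 8.38-fold, while *Ret* ranged 3.45-fold and *Tac1* 3.11-fold. The lowest values of *Nos1* and *Uchl1* are 1 and 2 reads in HFD F2, under the 3 reads (1.32 CPM) taken as the limit there, and without that library, left out after the data were seen, they ranged 10.7-fold and 8.12-fold. The biological coefficient of variation estimated by edgeR, which sets counting noise apart, was 54.7% for *Nos1*, 49.2% for *Vip*, 49.1% for *Uchl1* and 47.4% for *Elavl4*, against a median of 21.7% over all 13505 genes tested. It was 23.0% for *Ret* and 24.9% for *Tac1*. Differences between the 4 groups accounted for 30.4% of the sum of squares of *Nos1*, 27.7% of *Uchl1*, 23.2% of *Tac1*, 19.02% of *Elavl4*, 17.8% of *Vip* and 4.14% of *Ret* on the log2 scale. Means of 6 libraries differ also without a group effect, and these shares, which include HFD F2, carry no test. In all 4 contrasts between groups the ranges of all 8 genes overlapped.

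**Figure D1:**
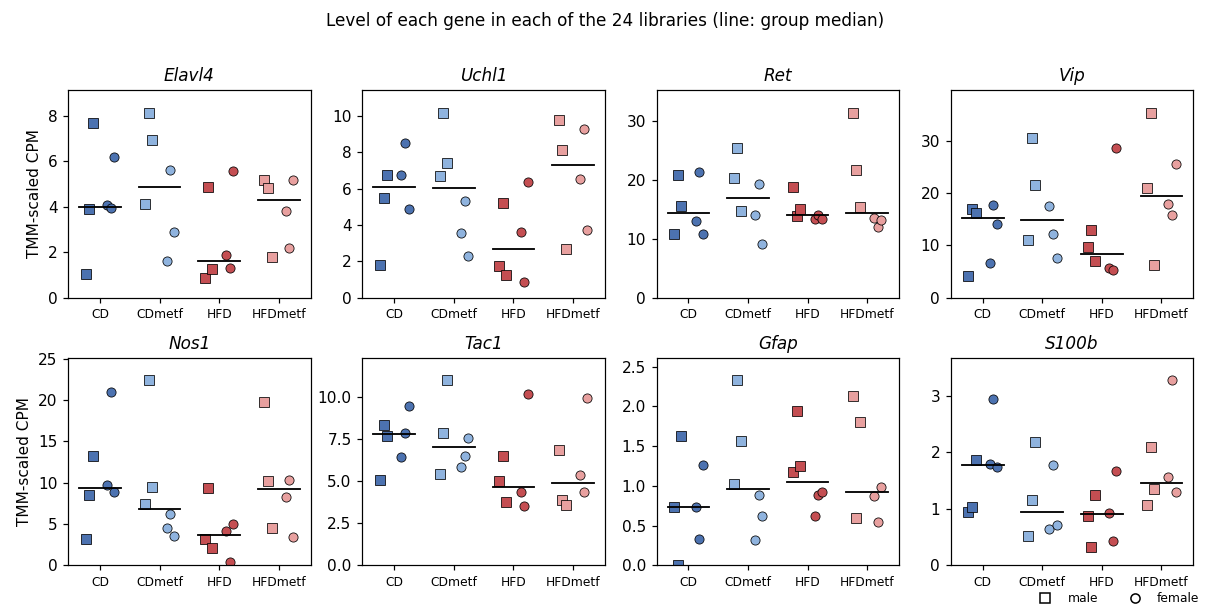
TMM-scaled CPM of the 8 genes in each of the 24 libraries by group, with squares for males, circles for females and a line for the group median. The groups overlap in every panel, and *Ret* stays above 9 CPM in all libraries. The HFD median lies below the other 3 group medians for every gene but *Gfap*, among them *Nos1* (3.70 CPM) and *Uchl1* (2.67 CPM), and for *Ret* only slightly.

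The effect of the diet alone was addressed by HFD vs. CD. *Nos1* stood at 3.17, 8.57, 13.3, 9.78, 20.9 and 8.94 CPM in the CD animals (M1 to M3, then F1 to F3) and at 3.23, 9.39, 2.09, 4.18, 0.440 and 5.04 CPM in the HFD animals. In CD, 5 of the 6 libraries thus lay above 6 CPM and 5 of the 6 HFD libraries below it, and the ranges overlapped through CD M1 and HFD M2. The lowest HFD value, HFD F2, rests on 1 read. The fit gave logFC = −1.26 (SE 0.473; unadjusted p = 0.0145; FDR = 0.995), so that the difference did not pass the adjustment over 13505 genes. In this contrast edgeR called 0% of genes at FDR under 0.05, and at an unadjusted p under 0.05 it gave 1.93% lower and 2.82% higher.

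*Uchl1* ranged from 1.79 to 8.51 CPM in CD (median 6.10) and from 0.881 to 6.37 CPM in HFD (median 2.67; logFC = −0.58; SE 0.432; FDR = 0.999). *Elavl4* ranged from 1.06 to 7.67 CPM in CD (median 4.00) and from 0.880 to 5.55 CPM in HFD (median 1.59; logFC = −0.62; SE 0.427; FDR = 0.999). For both genes the ranges overlapped, and the HFD animal was the lower one in 5 of the 6 pairs of the same labelled sex and replicate number. *Tac1* lay between 5.07 and 9.41 CPM in CD (median 7.76) and between 3.52 and 10.1 CPM in HFD (median 4.65; logFC = −0.38; SE 0.244; FDR = 0.995). Of the 6 genes tested, *Nos1* was the only one with an unadjusted p under 0.05, and the median logFC of the 6 was −0.48, against 0.0089 over all genes tested. In a bulk piece of tissue, fewer cells of a type and less RNA per cell cannot be told apart.

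For *Vip* and *Ret* the fitted change was near 0. *Vip* ranged from 4.22 to 17.7 CPM in CD (median 15.2) and from 5.28 to 12.95 CPM in 5 HFD libraries, whereas HFD F3 reached 28.6 CPM (logFC = 0.03; SE 0.422; FDR = 0.999). The HFD median of 8.39 CPM was below that of CD, and HFD F3, a library of 34425689 reads, held 1180 of the 1521 *Vip* reads in the group. *Ret* stood at 10.7 to 21.3 CPM in CD (median 14.3) and at 13.3 to 18.8 CPM in HFD (median 14.01; logFC = −0.0042; SE 0.201; FDR = 0.999).

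Metformin on the high-fat diet was addressed by HFDmetf vs. HFD. All 6 genes tested had a positive logFC (median 0.72, against −0.0088 over all genes tested), and none had an unadjusted p under 0.05 in a contrast where 3.09% of genes did so upwards and 3.78% downwards (0% at FDR under 0.05). *Nos1* stood at 19.8, 10.2, 4.50, 8.25, 10.3 and 3.40 CPM in HFDmetf, and 4 of these 6 values lay above all but 1 of the HFD values (logFC = 1.01; SE 0.486; unadjusted p = 0.0505; FDR = 0.620). *Uchl1* ranged from 2.70 to 9.75 CPM in HFDmetf with a median of 7.31 CPM (logFC = 0.81; SE 0.444; FDR = 0.620). *Vip* ranged from 6.30 to 35.4 CPM with a median of 19.5 CPM, and 5 of the 6 libraries lay above 15 CPM, a level that 1 HFD library reached (logFC = 0.83; SE 0.423; FDR = 0.620). *Elavl4* had logFC = 0.62 (SE 0.437; FDR = 0.632), *Ret* 0.23 (SE 0.199; FDR = 0.688) and *Tac1* 0.08 (SE 0.248; FDR = 0.921). HFD vs. CD and HFDmetf vs. HFD share the 6 HFD libraries, and the opposite signs of *Nos1*, *Uchl1* and *Elavl4* in them are not independent observations. With both mismatched libraries (labelled HFD M2 and HFD F2) left out, the logFC of *Nos1* was −1.11 in HFD vs. CD (unadjusted p = 0.0419) and 0.88 in HFDmetf vs. HFD (unadjusted p = 0.105), both from edgeR.

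On the control diet (CDmetf vs. CD) no gene of the 6 had an unadjusted p under 0.05, where 2.33% of all genes passed it upwards and 2.67% downwards (0% at FDR under 0.05). *Vip* had the largest logFC, 0.49 (SE 0.423; FDR = 0.989), with 7.51 to 30.5 CPM in CDmetf (median 14.8), and *Nos1* the lowest, −0.43 (SE 0.468; FDR = 0.998), with 3.61 to 22.4 CPM (median 6.83). In HFDmetf vs. CDmetf the logFC lay between −0.29 (*Tac1*; SE 0.247; FDR = 0.788) and 0.38 (*Vip*; SE 0.416; FDR = 0.830), again with no gene of the 6 at an unadjusted p under 0.05 (3.7% of all genes upwards, 3.85% downwards, 0% at FDR under 0.05). *Tac1* had medians of 7.03 CPM in CDmetf and 4.87 CPM in HFDmetf, and its ranges of 5.40 to 11.0 CPM and 3.601 to 9.93 CPM overlapped.

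The diet by metformin interaction, that is, the metformin effect on HFD minus that on CD, was positive in all 6 genes (median logFC 0.43, against 0.0112 over all genes). For *Nos1* it was 1.43 (SE 0.666; unadjusted p = 0.0428; FDR = 0.815), in a contrast where 2.75% of genes passed an unadjusted p of 0.05 upwards, 3.01% downwards and 0% the FDR threshold. With 1 animal left out in turn it lay between 0.99 (without HFDmetf M1; unadjusted p = 0.146) and 1.76 (without HFD F3; unadjusted p = 0.0179), positive in all 24 fits and with an unadjusted p under 0.05 in 10 of them. The logFC of *Nos1* in HFD vs. CD lay between −1.62 (without HFD F3) and −1.04 (without CD F2), with an unadjusted p under 0.05 in 24 of 24 such edgeR fits. For the members, such fits were read only where the main unadjusted p was under 0.05. They share nearly all libraries and do not measure chance. In limma-voom that logFC was −0.82 (unadjusted p = 0.0951) and in DESeq2 −1.37 (unadjusted p = 0.00451; FDR = 0.546).

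At FDR under 0.05 edgeR called 0 genes of 13505 in each of these 5 contrasts. At an unadjusted p under 0.05 it gave 642 genes in HFD vs. CD, 1020 in HFDmetf vs. CDmetf, 928 in HFDmetf vs. HFD, 675 in CDmetf vs. CD and 778 for the interaction. DESeq2 called 12, 0, 0, 4 and 4 genes in the same order and limma-voom 0 in each, and none of the 8 genes passed an adjusted threshold in any of them.

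Between the sexes, *Ret* had the smallest p of the 6 genes tested. By the labels it stood at 10.9 to 31.4 CPM in 12 males (median 17.2) and at 9.10 to 21.3 CPM in 12 females (median 13.4), with logFC = 0.41 for male vs. female (SE 0.141; unadjusted p = 0.00863; FDR = 0.607). The groups overlapped, 3.97% of genes passed an unadjusted p of 0.05 upwards and 3.27% downwards, and 0.0074% (1 gene) passed the FDR threshold. With both mismatched libraries left out, the logFC of *Ret* was 0.44 (unadjusted p = 0.00550), and it ranged from 0.32 to 0.50 when 1 animal was left out, with an unadjusted p under 0.05 in 24 of 24 fits. These fits, too, were read because the main unadjusted p was under 0.05, and they do not measure chance. The other 5 genes lay between −0.10 (*Tac1*) and 0.45 (*Nos1*; SE 0.341; unadjusted p = 0.204).

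The 2 glial genes had the fewest reads of the 8. *Gfap* had 278 reads in all 24 libraries together and 0 reads in CD M2, and its group medians were 0.736 CPM in CD, 0.958 in CDmetf, 1.05 in HFD and 0.927 in HFDmetf. *S100b* had 392 reads, with group medians of 1.77 CPM in CD, 0.943 in CDmetf, 0.906 in HFD and 1.46 in HFDmetf. Under 3 reads were found in 6 libraries for *Gfap* and in 4 for *S100b*, and levels there are at the limit of this depth. Both genes failed the count filter, and a fit without it gave *S100b* logFC = −0.65 in HFD vs. CD (SE 0.397; FDR = 1) and 0.62 in HFDmetf vs. HFD (SE 0.412; FDR = 0.888). The HFD animal had the lower *S100b* level in 6 of 6 pairs with CD, and the 2 ranges, 0.324 to 1.67 CPM and 0.950 to 2.95 CPM, overlapped. *Gfap* had logFC = 0.34 (SE 0.448; FDR = 1) and 0.12 (SE 0.444; FDR = 1) in the same contrasts, so that the 2 glial genes had opposite signs in HFD vs. CD. Between the sexes as labelled, *Gfap* had logFC = 0.75 for male vs. female (SE 0.325; unadjusted p = 0.0278; FDR = 0.759). By the labels it stood at 0 to 2.33 CPM in males and 0.325 to 1.27 CPM in females. HFD M2, counted as a male against its sex-linked transcripts, had 1.94 CPM, and HFD F2, counted as a female against them, 0.881 CPM. No fit of *Gfap* without both libraries is given. *Scn7a*, a sodium channel gene of glia, had a median of 23.9 CPM, and *Sox10*, a defining glial transcription factor gene, had a median of 1.59 CPM (genes named after their values were seen).

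Over the 24 libraries the neuronal genes moved together to very different degrees. *Uchl1* and *Nos1* formed the closest pair (Pearson r = 0.917; Spearman rho = 0.937; n = 24; permutation adjusted p = 7.5e-05 over 15 pairs). This r was 0.877 without HFD F2 and HFD M3, the libraries farthest from the median of *Uchl1*, 0.921 after removing group, sex and replicate number, and 0.937, 0.969 and 0.856 within replicate numbers 1, 2 and 3. *Elavl4* followed *Uchl1* (r = 0.784; rho = 0.666; permutation adjusted p = 7.5e-05; 0.729 without CD M1 and HFD M1) and *Tac1* (r = 0.711; rho = 0.726; permutation adjusted p = 0.0004). *Vip* stood at r = 0.722 with *Uchl1* (rho = 0.673; permutation adjusted p = 0.000375). In all, 13 of 15 pairs passed an adjusted permutation p of 0.05 by Pearson's r and 8 by Spearman's rho.

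*Ret* and *Tac1* had r = −0.001 over the libraries (rho = −0.010; permutation adjusted p = 0.997), but 0.364 after removing group, sex and replicate number and 0.477, 0.550 and −0.333 within numbers 1, 2 and 3. *Ret* had its highest r, 0.466, with *Nos1* (rho = 0.410). That r was 0.274 without CDmetf M2 and HFDmetf M1. It was 0.404 after removing group, sex and replicate number and 0.635, 0.490 and 0.129 within numbers 1, 2 and 3. The relations of *Tac1* with *Uchl1* (r = 0.474) and with *Nos1* (r = 0.457) were 0.247 and 0.218 without HFD F2 and HFD M3. After removing group, sex and replicate number they were 0.635 and 0.579, and within numbers 1, 2 and 3 they were 0.648, 0.479 and 0.770 for *Uchl1* and 0.788, 0.640 and 0.509 for *Nos1*. In HFD F2, where *Nos1* had 1 read and *Uchl1* 2 reads, *Ret* still had 32 reads (14.1 CPM) and *Vip* 12 (5.28 CPM). In HFD M3 *Uchl1* stood at 1.25 CPM and *Ret* at 15.03 CPM. *Ret* remained above 9 CPM in 24 of 24 libraries, whereas *Uchl1* was under 2 CPM in 4, namely CD M1, HFD M1, HFD M3 and HFD F2.

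Depth differed between the groups, with median reads on genes of 10387014 in CD, 3284867 in CDmetf, 3145285 in HFD and 3966407 in HFDmetf. CD M3 counts in this with 22413162 reads, 85.4% of them on 10 genes, and its library size after TMM scaling was 4300782. The part of depth in the group differences was not tested. No relation of the 6 genes with sequencing depth passed adjustment over 12 relations. Over the 24 libraries the r with the log10 of reads on genes was 0.545 for *Tac1* (rho = 0.556) and −0.495 for *Ret* (rho = −0.419; permutation adjusted p = 0.0796 and 0.0816). Without CD M3 this r was 0.533 for *Tac1* and −0.510 for *Ret*. After removing group, sex and replicate number it was 0.528 for *Tac1*, −0.060 for *Ret*, 0.552 for *Elavl4* and 0.411 for *Uchl1*, and within number 2 that of *Ret* was 0.729. Of all genes tested, 2.65% had an r at least as high as *Tac1* and 4.6% one at least as low as *Ret*. *Tac1* had r = 0.925 with depth within replicate number 3 and −0.453 within number 1, and its mean was 7.88 CPM in the 8 libraries with number 3 against 5.54 CPM with number 1. Before that removal the other 4 genes lay between −0.020 and 0.296. With the share of reads not on genes, *Tac1* had r = −0.438 (rho = −0.452; permutation adjusted p = 0.130).

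The levels were then set beside markers of the other cell types in the piece. A score per library was the mean z-score of log2 CPM over the tested genes of a list, and the smooth-muscle score held 9 genes such as *Myh11*, *Actg2* and *Des*. With this score *Nos1* had r = 0.836 (rho = 0.957), *Uchl1* 0.797 (rho = 0.903), *Elavl4* 0.663 (rho = 0.629), *Ret* 0.631 (rho = 0.515) and *Vip* 0.583 (rho = 0.576), all 5 past an adjusted permutation p of 0.05 over 48 relations. *Tac1* did not pass (r = 0.336; rho = 0.362; permutation adjusted p = 0.187). After removing group, sex and replicate number, r with this score lay between 0.501 and 0.804 over all 6 genes, *Tac1* included. Without CDmetf M2 and HFDmetf M1, the 2 libraries farthest from the median score, r was 0.802 for *Nos1*, 0.786 for *Uchl1*, 0.621 for *Elavl4*, 0.497 for *Vip* and 0.426 for *Ret*. Within replicate numbers 1, 2 and 3 it was 0.906, 0.861 and 0.942 for *Nos1*. Per unit of the score, log2 CPM differed by 1.11 for *Nos1*, 0.845 for *Uchl1*, 0.687 for *Elavl4*, 0.561 for *Vip*, 0.296 for *Ret* and 0.184 for *Tac1*.

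**Figure D2:**
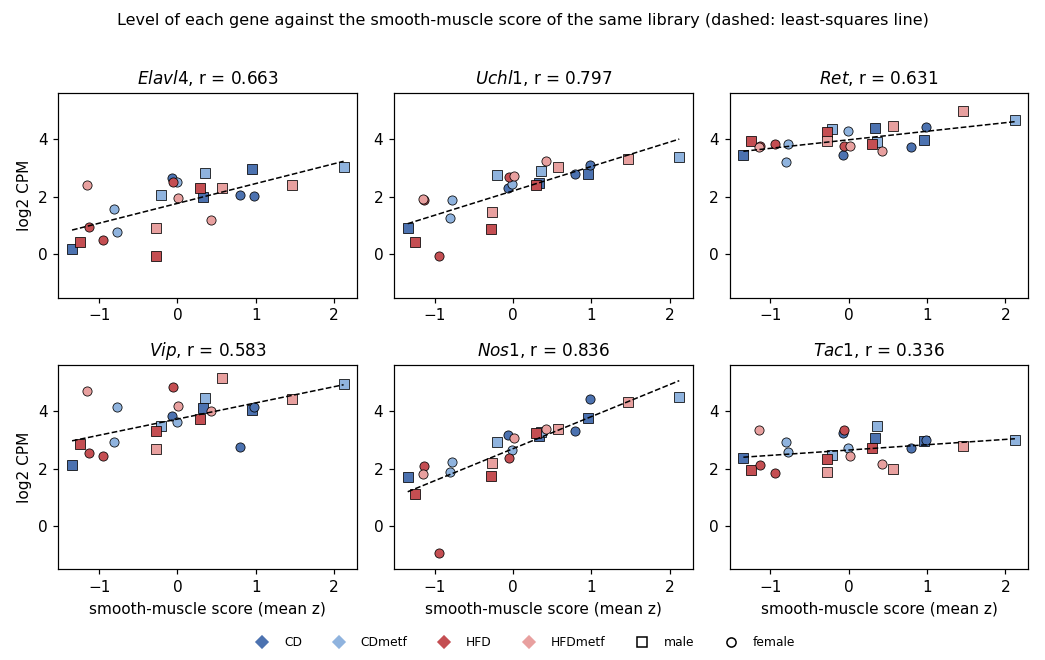
Level of the 6 tested genes (log2 CPM, prior count 1) against the smooth-muscle score of the same library (mean z-score of 9 genes) in 24 libraries, coloured by group, with squares for males, circles for females and a dashed least-squares line. *Nos1* (r = 0.836) and *Uchl1* (r = 0.797) have the steepest lines (slopes 1.11 and 0.845), *Ret* (0.296) and *Tac1* (0.184) the flattest.

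Interstitial cells of Cajal, the pacemaker cells of the muscle coat, gave a like picture through *Kit*, *Ano1*, *Etv1*, *Thbs4* and *Hcn4*. Their score had r = 0.904 with *Uchl1*, 0.899 with *Nos1*, 0.725 with *Elavl4*, 0.714 with *Vip* and 0.589 with *Tac1*, and *Ret* alone did not pass adjustment (r = 0.327; permutation adjusted p = 0.194). Enteroendocrine cells, which also use peptides, had r between −0.413 and −0.133 with the 6 genes, the epithelium between −0.300 and 0.155, lymphoid cells between −0.354 and 0.023 and adipocytes between −0.260 and 0.417, with no relation past adjustment. The smooth-muscle score had a mean of 0.27 in CD, 0.11 in CDmetf, −0.56 in HFD and 0.17 in HFDmetf. Over 6 pairs of the same labelled sex and number it was higher in HFD than in CD in 2 and higher in HFDmetf than in HFD in 5 (exact two-sided sign-flip permutation p = 0.1875 and 0.125; adjusted p = 0.833 each over 24 tests). The smallest p that 6 pairs allow is 0.03125.

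With the smooth-muscle score added to the fit as a term, the logFC of *Nos1* was −0.47 in HFD vs. CD (SE 0.273; unadjusted p = 0.101), 0.34 in HFDmetf vs. HFD (SE 0.272; unadjusted p = 0.228) and 0.54 for the interaction (SE 0.371; unadjusted p = 0.161). For *Uchl1* it was 0.01 in HFD vs. CD (SE 0.293) and 0.35 in HFDmetf vs. HFD (SE 0.296). *Elavl4* stood at −0.09 (SE 0.346) and 0.27 (SE 0.331). For *Vip* it was 0.35 (SE 0.375) and 0.59 (SE 0.362), and for *Tac1* −0.24 (SE 0.234) and −0.03 (SE 0.236). With the score, 231 genes had an unadjusted p under 0.05 in HFDmetf vs. HFD, against 928 without it, and 436 against 642 in HFD vs. CD. The male vs. female logFC of *Ret* was 0.28 (SE 0.128; unadjusted p = 0.0379).

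**Figure D3:**
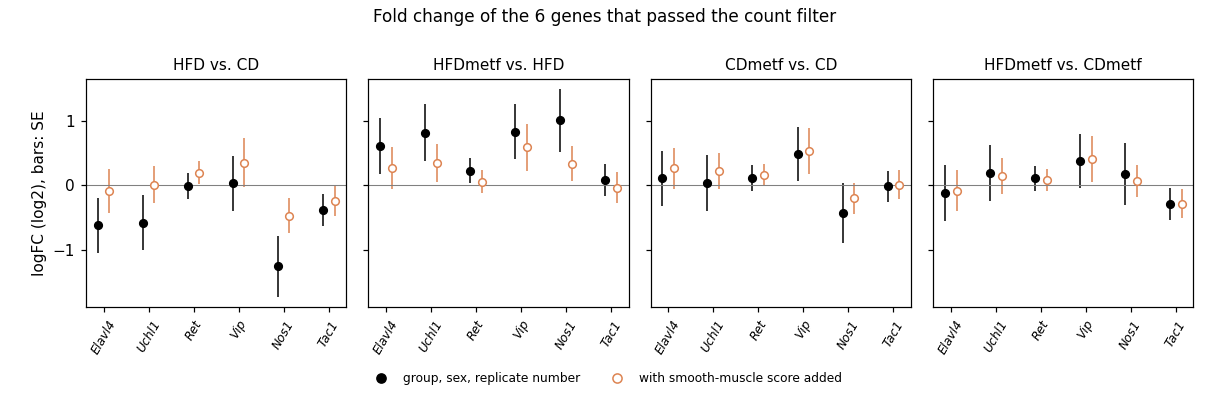
logFC with its SE for the 6 tested genes in the 4 contrasts, from the fit with group, sex and replicate number (filled) and with the smooth-muscle score added (open). The *Nos1* value in HFD vs. CD lies at −1.26 in the first fit and at −0.47 in the second, and that of *Uchl1* at −0.58 and 0.01.

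A ratio within a library cancels its scaling factor, and the 3 transmitter genes were therefore set against *Uchl1*. At few reads a ratio still depends on depth and on the prior count added. Pairs follow the labelled sex, so that HFD M2 and HFD F2 were paired against their sex-linked transcripts. Pairing by these transcripts was not tested. For *Vip*/*Uchl1* in HFD vs. CD, the pair against the trend below was M2, at 1.31 in HFD and 1.62 in CD. The log2 ratio *Vip*/*Uchl1* was 1.10 ± 0.588 in CD and 1.90 ± 0.751 in HFD (SD, n = 6 each), higher in HFD in 5 of 6 pairs (exact sign-flip permutation p = 0.0625; adjusted p = 0.300 over 16 tests). *Nos1*/*Uchl1* was 0.85 ± 0.268 in CD and 0.23 ± 0.711 in HFD (SD, n = 6 each; exact permutation p = 0.125; adjusted p = 0.333). The HFD values include HFD F2, with 1 *Nos1* read and 2 *Uchl1* reads. Without it the HFD mean was 0.46 for *Nos1*/*Uchl1*, and the mean difference over the 5 remaining pairs was −0.30 (exact permutation p = 0.250, where 0.0625 is the smallest that 5 pairs allow), against −0.61 over 6. For *Vip*/*Uchl1* it was 0.67 (exact permutation p = 0.125). *Tac1*/*Uchl1* was 0.50 ± 0.620 in CD, 0.42 ± 0.753 in CDmetf, 1.02 ± 0.695 in HFD and −0.18 ± 0.948 in HFDmetf. It was lower in HFDmetf than in CDmetf in 6 of 6 pairs, by 0.60 on average (exact permutation p = 0.03125, the smallest possible; adjusted p = 0.300), and lower than in HFD in 5 of 6 pairs, by 1.202 on average (exact permutation p = 0.09375; adjusted p = 0.300), or by 0.85 without HFD F2 (exact permutation p = 0.1875). *Gfap*/*S100b*, which rests on few reads, was −1.46 ± 1.50 in CD and 0.37 ± 1.13 in HFD (SD, n = 6 each), higher in HFD in 5 of 6 pairs (exact permutation p = 0.09375; adjusted p = 0.300). In CD M2, with 0 *Gfap* reads, it was −3.75, a value set by the prior count. With a prior count of 3 the means were −1.12 in CD and 0.30 in HFD. No ratio passed the adjustment.

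**Figure D4:**
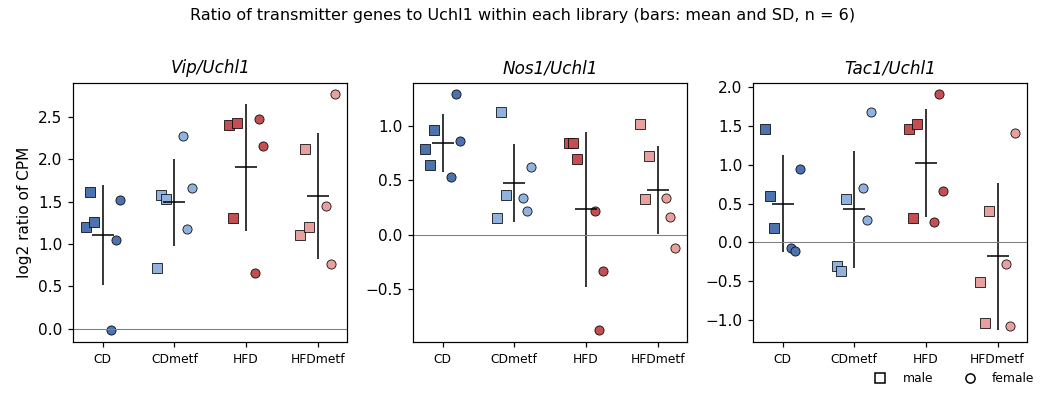
log2 ratio of CPM of *Vip*, *Nos1* and *Tac1* to *Uchl1* in each of the 24 libraries by group, with squares for males, circles for females and bars for the mean and SD (n = 6). The mean of *Tac1*/*Uchl1* is 1.02 in HFD and −0.18 in HFDmetf, with 1 female of HFDmetf, F3, at 1.402.

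Other genes of neurons were read from a list of 18 pan-neuronal genes, 13 of which were tested. In HFD vs. CD 13 of 13 had a negative logFC (median −0.48), 1 of them at an unadjusted p under 0.05, namely *Hand2*, a transcription factor of enteric neurons (logFC = −0.72; SE 0.344; FDR = 0.995). In HFDmetf vs. HFD 13 of 13 had a positive logFC (median 0.60), with *Stmn3*, a microtubule regulator (1.03; SE 0.432; FDR = 0.620), and *Scg2*, a secretogranin of dense-core vesicles (0.64; SE 0.272; FDR = 0.620), at an unadjusted p under 0.05. *Stmn3* was also the only gene of this list so in HFDmetf vs. CDmetf (0.94; SE 0.431; FDR = 0.659), where 3.7% of all genes were higher and 3.85% lower. Its reads were few, with 2 in HFD M1 and 0 in HFD M3. In CDmetf vs. CD 7 had a positive and 6 a negative logFC (median 0.03). The smooth-muscle list had the same signs, with 9 of 9 negative in HFD vs. CD (median −0.40; 3 at an unadjusted p under 0.05) and 9 of 9 positive in HFDmetf vs. HFD (median 0.40; 0 at that p). The 5 genes of interstitial cells of Cajal had median logFC −0.51 and 0.42 in these contrasts. In the second, *Ano1*, a chloride channel gene, had an unadjusted p of 0.0458 (logFC = 0.52; FDR = 0.620). For comparison, the shares of all tested genes that passed the same 0.05 cut-off in HFD vs. CD were 1.93% lower and 2.82% higher. In HFDmetf vs. HFD these shares were 3.78% lower and 3.09% higher. The all-gene median logFC was 0.0089 in the former and −0.0088 in the latter. Whether the signs within a list are independent of each other was not tested.

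Of 18 genes of transmitter classes 8 were tested. In HFDmetf vs. HFD 7 of 8 had a positive logFC (median 0.78) and 3 an unadjusted p under 0.05: *Htr3a*, a serotonin receptor channel (1.56; SE 0.520; unadjusted p = 0.00678), *Slc5a7*, the choline transporter of cholinergic neurons (0.96; SE 0.378; unadjusted p = 0.0189), and *Dbh*, which makes noradrenaline (1.21; SE 0.522; unadjusted p = 0.0299). All 3 had FDR = 0.620, in a contrast where 3.09% of all genes were higher at that p and 3.78% lower. *Htr3a* had 1 read each in HFD M1, HFD M2 and HFD F2, and *Dbh* 1 read in HFD M3, under the 3 reads taken as the limit. HFDmetf was the higher one in 4 of 6 pairs for *Htr3a* and for *Slc5a7* and in 6 of 6 for *Dbh*. In HFD vs. CD 7 of 8 had a negative logFC (median −0.44), none at an unadjusted p under 0.05 (1.93% of all genes lower, 2.82% higher). The interaction of *Slc5a7* was 1.39 (SE 0.524; unadjusted p = 0.0148; FDR = 0.815). *Chat*, the enzyme that makes acetylcholine, had a median of 1.05 CPM and was not tested. *Sst* and *Ddc* of this list are also made by enteroendocrine cells, and their medians were the highest of it, 26.1 and 59.5 CPM.

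Of 14 glial genes 9 were tested, with 7 of 9 negative in HFD vs. CD (median −0.32) and 7 of 9 positive in HFDmetf vs. HFD (median 0.48). In the second contrast *Cryab*, a small heat shock protein gene, had logFC = 0.75 (SE 0.321; unadjusted p = 0.0291) and *Erbb3*, a neuregulin receptor gene, −0.43 (SE 0.195; unadjusted p = 0.0374), both with FDR = 0.620. Over all genes, 3.09% were higher and 3.78% lower at an unadjusted p under 0.05 there. The interaction of *Cryab* was 0.96 (SE 0.446; unadjusted p = 0.0422; FDR = 0.815). *Erbb3*, at a median of 646 CPM, stood far above the other genes of the list and is also made by the epithelium.

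Among 18 ligands and receptors of the members, 14 were tested and none had an unadjusted p under 0.05 in the 4 contrasts. Of all genes, 1.93% to 3.85% did so per contrast and direction. Their median logFC was −0.18 in HFD vs. CD (11 of 14 negative) and 0.28 in HFDmetf vs. HFD (10 of 14 positive). *Gfra1* and *Gfra2*, the co-receptors of *Ret*, had medians of 4.91 and 3.84 CPM, and their ligands *Gdnf* and *Nrtn* 3.37 and 2.26 CPM. The VIP receptor gene *Vipr1* had a median of 218 CPM and *Vipr2* one of 2.07 CPM. The receptors of tachykinins, *Tacr1* and *Tacr2*, stood at 4.16 and 2.60 CPM. For nitric oxide, the guanylate cyclase subunits *Gucy1a1* and *Gucy1b1* stood at 33.9 and 20.3 CPM. *Ednrb* and *Edn3*, the endothelin receptor and ligand of enteric neuron precursors, stood at 35.7 and 40.2 CPM, and none of these levels is per length.

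For the lists of other cells, in HFD vs. CD and HFDmetf vs. HFD the median logFC was 1.67 and −1.78 for 9 lymphoid genes (6 and 7 at an unadjusted p under 0.05), 0.01 and 0.11 for 10 enteroendocrine genes (0 and 0), 0.0096 and −0.16 for 10 epithelial genes (0 and 1) and −0.81 and 1.35 for 8 adipocyte genes (1 and 0). Over all genes, 2.82% were higher and 1.93% lower at that p in the first contrast. In the second these shares were 3.09% and 3.78%. Of 9 pancreatic acinar genes 1 was tested, *Cela1*, with logFC −0.22 and 0.66. The lymphoid genes summed to 14.9 to 71.97 CPM in CD, 18.6 to 329 in CDmetf, 23.6 to 273 in HFD and 17.4 to 40.8 in HFDmetf. Beyond the correlations given above, the part of these cells in the levels of the enteric genes was not tested.

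**Figure D5:**
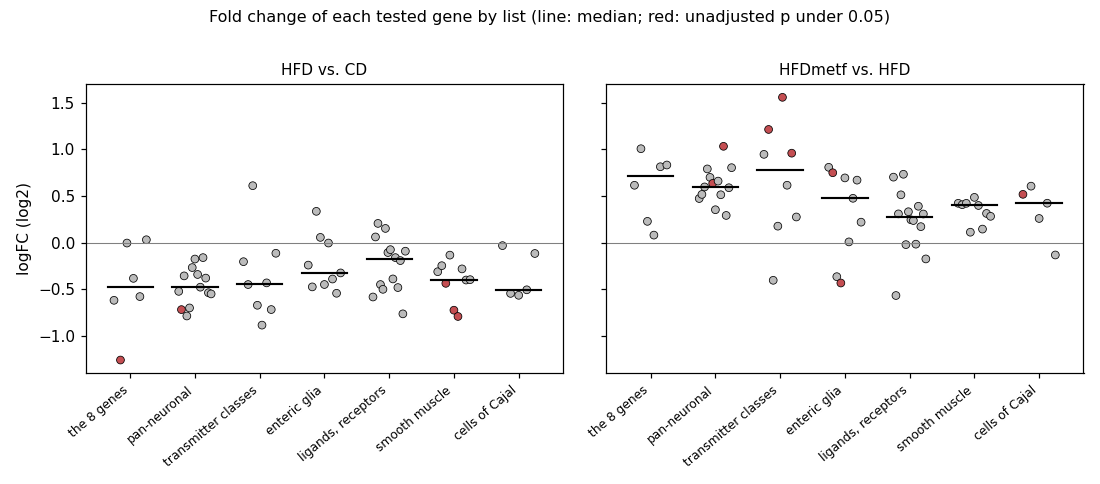
logFC of each tested gene in HFD vs. CD (left) and HFDmetf vs. HFD (right) for the 8 genes, 4 lists of the enteric nervous system and 2 lists of the muscle coat, with a line for the list median and red points for an unadjusted p under 0.05. Pan-neuronal and smooth-muscle genes lie wholly below 0 in the left panel and wholly above it in the right, and the 2 panels share the HFD libraries.

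The genes most like each member over the 24 libraries were sought among 11564 to 11569 genes with at least 10 reads in at least 20 libraries. *Nos1* was closest to *Ank2*, an ankyrin gene (r = 0.965; rho = 0.933), then *Atp2b4* and *Sdk1*. *Uchl1* was closest to *Peg3*, an imprinted zinc finger gene (r = 0.952), then *Pygb* and *Thbs2*, and *Elavl4* to *Kif21a*, a kinesin gene (r = 0.903), then *Cnr1* and *Sv2c*. *Vip* was closest to *Cbx5* (r = 0.899), *Tac1* to *Socs6* (r = 0.844) and *Ret* to the collagen gene *Col1a1* (r = 0.806). For the mean z-score of the 6 genes the closest were *Tmod2* (r = 0.956), *Itga1* (r = 0.931), *Cnr1*, *Thbs2*, *Parva*, *Tmem252*, *Gfra1*, *Nedd4*, *Rab3c* and *Fkbp9* (r = 0.921). These values describe libraries that share depth and tissue composition and carry no test.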

How the data were processed

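RNA was sequenced from the distal small intestine of 24 mice after depletion of ribosomal RNA, with a directional kit and paired reads. The authors trimmed the reads with Trimmomatic 0.39, mapped them to GRCm38 and counted them with STAR 2.5.3a, and deposited raw read counts per gene. The annotation release and the strand counted are not given in the sources used here. Groups, sexes and replicate numbers were taken from the labels, and 0 columns of other samples were present.

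From the counts, 13505 of 55536 genes passed filterByExpr of edgeR 4.0.16 (R 4.3.3) and were tested with the quasi-likelihood test on group, sex and replicate number (TMM scaling, 17 residual degrees of freedom), with Benjamini-Hochberg adjustment (FDR) over all genes and a threshold of 0.05. The study's methods use sex and block as covariates; whether the replicate numbers are those blocks is not stated. Deviations from group means had a mean correlation of 0.143 for libraries of the same number and −0.0703 for different numbers. limma 3.58.1 (voom) and DESeq2 1.42.0 served as alternatives, along with RLE scaling, other filters, no replicate block, no sex term, fits of the 12 samples compared, a smooth-muscle covariate and fits without single libraries. In simulated HFD vs. CD counts with 13296 genes, 65.5% of 197 genes changed by 1 on the log2 scale were recovered. Depth was 1829690 to 40606442 reads on genes.

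The log2 CPM used a prior count of 1. Correlations were tested with 100000 permutations (SciPy 1.17.1, Python 3.11.15), ratios and scores by exact sign flips over 6 pairs of the same labelled sex and number. Ratios were also tested by exact unpaired permutation. Named genes include the 8 members, list genes with an unadjusted p under 0.05 (at most 5 per list and contrast, and not all such genes) and up to 3 genes most like each member. Other list genes are named for their role or level and not for a test result. The members and lists were chosen with earlier results of these data known. Coordinates came from GENCODE M21 (GRCm38) and upstream sequences from RefSeq (GRCm38.p6).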

Additional observations from a re-analysis of the deposited data

Results flagged for a closer look

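In each group of 6, the distance of the highest or lowest library to its neighbour was compared with the range of the group (Dixon's criterion, 0.625 for 6 libraries). Of 32 groups 3 exceeded it, and chance gives about 1 in 20. *Ret* stood at 18.7685 CPM in HFD M1, while the remaining 5 libraries of the group held 13.3 to 15.03 CPM (0.687 of the range). *Vip* stood at 28.5941 CPM in HFD F3, against 5.28 to 12.95 CPM in the others (0.671). *Nos1* stood at 22.3893 CPM in CDmetf M2, against 3.61 to 9.54 CPM in the others (0.684), and that library also had the highest smooth-muscle score of the 24 (2.12).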

How the results depend on the processing

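No value of the 8 genes passed an adjusted threshold under any alternative, and of 354 values of the genes under alternatives other than leaving out 1 library, 31 changed sign. With the smooth-muscle score as a covariate these were, in HFD vs. CD, *Uchl1* 0.013 and *Ret* 0.20, *Tac1* −0.035 in HFDmetf vs. HFD and 0.012 in CDmetf vs. CD, *Ret* −0.11 and *Tac1* −0.046 for the interaction, and for male vs. female *Elavl4* −0.29, *Uchl1* −0.31, *Vip* −0.19 and *Nos1* −0.10. In limma-voom they were *Ret* 0.12 in HFD vs. CD, *Elavl4* 0.19 in HFDmetf vs. CDmetf, and *Elavl4* −0.16 and *Uchl1* −0.039 in CDmetf vs. CD. *Ret* in HFD vs. CD was 0.0015 in DESeq2, 0.018 without the filter, 0.0037 with only the 12 samples compared, 0.021 without CD M3 and 0.17 without HFD M2 and HFD F2. *Vip* in HFD vs. CD was −0.026 in DESeq2 and −0.0060 with only the 12 samples compared. *Tac1* in CDmetf vs. CD was 0.0048 in DESeq2, 0.00042 with RLE scaling and 0.038 without the filter, and *Uchl1* there was −0.028 with only the 12 samples compared. Without CD M3 the male vs. female values of *Elavl4* and *Uchl1* were −0.011 and −0.0090, and without HFD M2 and HFD F2 *Elavl4* was −0.021 and the interaction of *Ret* −0.048. The cause was not tested.

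With no replicate block, *Vip* in HFD vs. CD was −0.022, *Tac1* in CDmetf vs. CD 0.028, *Nos1* −1.34 in HFD vs. CD and 1.08 in HFDmetf vs. HFD (unadjusted p = 0.0427, edgeR), and no adjusted call of the 8 genes changed. DESeq2 called 12 genes in HFD vs. CD, 4 in CDmetf vs. CD, 4 for the interaction and 22 for male vs. female. For male vs. female edgeR called 15 without the filter, 2 without CD M3, 8 without HFD M2 and HFD F2, 2 with the smooth-muscle score, and 0 (without CDmetf M1) to 8 (without HFD M2) when 1 library was left out. A minimum of 10 counts in every library kept only *Ret* and *Vip*. With 3 reads worth 0.0717 to 1.63 CPM, *Gfap* was under 3 reads in 6 libraries and *S100b* in 4.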
